A study of Mus musculus with 12 samples.

Results

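First-exon m6A peaks are the peaks that the deposited annotation places in exon 1 of a transcript with more than 1 exon, outside the 5′ and 3′ UTRs. The rule is the annotation text alone, so no measured value chose them. The WT list held 1771 first-exon peaks of 33622 (5.27%, exact 95% binomial interval 5.03% to 5.51%) in 1457 genes, and the Tyrobp-/- list held 1787 of 34935 (5.12%, 4.89% to 5.35%) in 1428 genes. The deposited table that compares the genotypes held 262 of 5640 in 245 genes. The intervals cover counting error only.

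Hippocampi of 6-month-old mice were examined, and all mice of both genotypes were male. Tyrobp-/- mice lack 10 bases of exon 2 of Tyrobp, the adaptor of the microglial receptor TREM2. The deletion was made with a TALEN in fertilized eggs and bred with C57/BL6 mice, and WT littermates of the same age were the controls. Each genotype had 3 samples, each sample pooled 3 mice, and each sample gave 1 immunoprecipitated (IP) and 1 input library. These 12 libraries held 61189368 to 73554506 valid reads. The GC content was 49.16% to 50.24% in the WT IP libraries and 48.46% to 49.33% in the Tyrobp-/- IP libraries, so the IP libraries of the genotypes overlapped in a narrow range, and its part in the results was not tested. Tyrobp itself had 0 peaks in all 3 files, so the deleted gene could not be checked. All 10 hippocampal and neuronal marker genes looked up, such as Prox1 and Camk2a, held a peak in both lists. A peak shows that a transcript was captured and not how much of it was present, so fewer cells of a type and less RNA per cell cannot be told apart.

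N6-methyladenosine (m6A) is written on nascent mRNA by the METTL3 and METTL14 complex at adenosines in a short consensus called DRACH. Most m6A lies in long internal exons and around the stop codon, because the protein complexes deposited at exon junctions keep the methyltransferase away from short coding exons. A first exon is therefore an uncommon site, except where it is long or where a transcript has few exons. The antibody used for MeRIP-seq also binds m6Am, the methylated adenosine next to the cap, so a peak at a transcript start can hold either mark.

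Sequence was at hand for the 250 bases before and the 50 bases after RefSeq start sites (GRCm38.p6), and the stretches shown are 5 of those where such a window lay inside a first-exon peak with a deposited FDR of 1e-05 or lower. They are 30 bases long, read 5′ to 3′ on the transcript strand, with a 5-base match to the consensus in capitals. Only stretches whose match begins with GGAC were drawn on, so they do not show how common that form is under first-exon peaks. Lrch2 was taken because it led the matched peaks of named genes in WT mice, and Dchs2 because it led the Tyrobp-/- peaks of named genes without an overlapping WT peak. Dnajb4, Trmt61b and Vegfa were chosen after their values were seen, as a peak that was lower, level and higher in Tyrobp-/- mice.
Lrch2: ggtgaggagcctGGACCgggccctggagga
Dchs2: cgcacggggaggGGACTaaggagtaggagg
Dnajb4: cgcgcttgtaggGGACTtggaaaggccgtc
Trmt61b: tccctttccagaGGACTcttttcagtcggg
Vegfa: gggggggcaggaGGACAgtggtacaaggag

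The Lrch2 stretch lies on the minus strand of chrX:147553770-147553799, and the Dchs2 stretch on the plus strand of chr3:83127327-83127356. The Dnajb4 stretch is on the minus strand of chr3:152210197-152210226, the Trmt61b stretch on the minus strand of chr17:71598305-71598334 and the Vegfa stretch on the minus strand of chr17:46025281-46025310. All 5 matches start upstream of the RefSeq start whose window was read, by 41 bases in Trmt61b to 188 bases in Dchs2, yet inside exon 1 as the Ensembl annotation draws it. Fold enrichment, the deposited ratio of IP over input reads, was 67.4 in WT and 42.9 in Tyrobp-/- mice at Lrch2. Dnajb4, a heat shock co-chaperone, had 17.6 in WT and 6.29 in Tyrobp-/- mice. Trmt61b, a tRNA methyltransferase of mitochondria, had 5.19 and 5.22. Vegfa, the vascular growth factor, had 4.50 and 7.56. Each value is 1 number per genotype for its 3 samples, so none has a replicate error.

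The consensus was then counted in the 50 bases after the RefSeq start, on the transcript strand, in windows that a first-exon peak covered in full. DRACH is a run of 5 bases, namely any base but C, a purine, AC and any base but G. It was found in 57 of 103 windows under WT peaks (55.3%, 45.2% to 65.1%) and in 66 of 116 under Tyrobp-/- peaks (56.9%, 47.4% to 66.1%). Over all 32851 windows the share was 54.4%, which lies inside both intervals. Windows under 5′ UTR peaks held it less often, in 46.8% for WT and 45.8% for Tyrobp-/- mice. The narrower GGACT, which is 1 form of DRACH, was in 4 of 103 and 7 of 116 windows, against 5.76% of all windows. The consensus was thus about as frequent under first-exon peaks as in start windows at large. These windows cover the first bases of the transcript only, and the body of the first exons was not searched.

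First-exon peaks had a higher median fold enrichment than most other classes. The median was 6.84 in WT mice (quartiles 3.58 and 9.77) and 6.67 in Tyrobp-/- mice (3.57 and 9.53), against 5.54 and 5.72 over all peaks. Peaks in the 5′ UTR had medians of 5.86 and 6.06, and peaks in internal exons had the lowest, 4.32 and 4.41. Last-exon peaks had the same medians as first-exon peaks, 6.84 and 6.67, and single-exon peaks had 7.03 and 6.67.

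**Figure D1:**
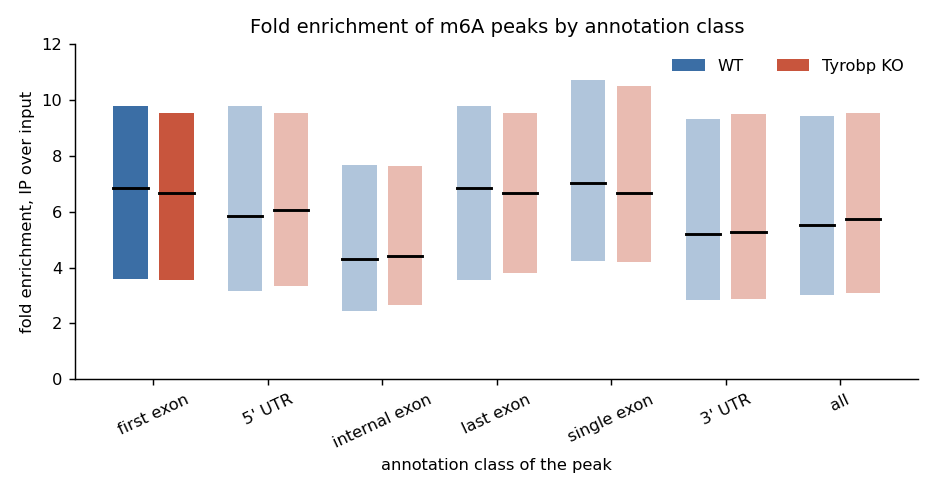
Fold enrichment of IP over input (vertical axis) of the peaks of each annotation class in the WT (blue) and Tyrobp-/- (red) lists, with the box spanning the quartiles over peaks and the black line at the median. First-exon peaks have medians of 6.84 and 6.67, above 5′ UTR and internal-exon peaks and level with last-exon peaks.

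The high median went together with weak evidence for the single peak. Of the first-exon peaks, 722 in WT (40.8%) and 717 in Tyrobp-/- mice (40.1%) had an FDR of 1e-05 or lower, against 64.4% and 63.3% of all peaks. This was not particular to first exons, as the shares were 38.0% and 36.9% of last-exon and 32.8% and 28.5% of single-exon peaks. First-exon peaks covered a median of 260 and 239 exonic bases, against 326 and 301 over all peaks. First-exon peaks that passed this FDR had medians of 6.35 and 6.13, lower than the whole class.

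The deposited fold enrichments were not continuous. Many fell on a ladder of whole multiples of 1 step, which was 0.977 in WT and 0.953 in Tyrobp-/- mice. From 7 steps upwards, the ladder held 651 of the WT (36.8%) and 664 of the Tyrobp-/- first-exon peaks (37.2%), where all peaks gave 21.6% and 22.4%. Last-exon peaks gave 38.3% and 39.6%, and single-exon peaks 47.3% and 47.5%. The commonest values were 6.84 and 6.67, which are 7 steps each and are also the medians of first-exon peaks. The commonest log10 p at that rung was -1.42 in WT and -1.39 in Tyrobp-/- mice, the same as a binomial tail for 7 IP reads against 1 input read at the ratio of the step. That rung with that p held 73 WT (4.12%) and 91 Tyrobp-/- first-exon peaks (5.09%), where all peaks gave 2.48% and 2.61%. At 7 steps the numbers thus match those of very few reads, so fold enrichment was read here together with the FDR. Whole multiples below 7 steps, such as 5.86 with 38 WT first-exon peaks, were not counted in these shares.

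**Figure D2:**
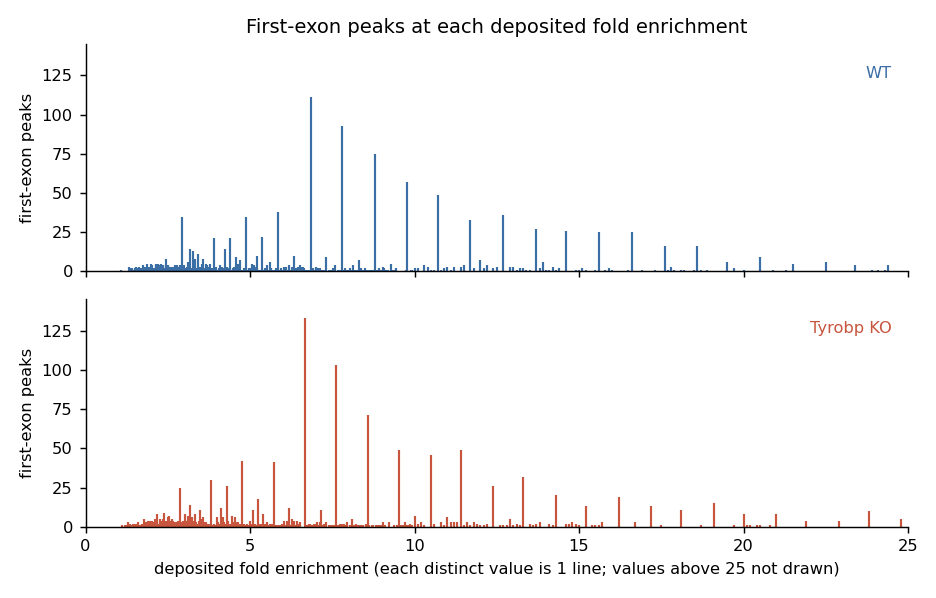
Number of first-exon peaks (vertical axis) at each distinct deposited fold enrichment (horizontal axis, values above 25 not drawn) in the WT and Tyrobp-/- lists. The tall, evenly spaced lines are whole multiples of the step of each list, 0.977 and 0.953, and the tallest stand at 6.84 and 6.67.

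Noncoding and predicted transcripts made up a large part of the class. Gene models with a predicted symbol (Gm with a number, Rik clones or symbols ending in -ps) held 43.9% of the WT and 43.5% of the Tyrobp-/- first-exon peaks, against 15.5% and 15.4% of all peaks. By RefSeq, 52.5% and 51.8% lay in protein-coding genes, against 84.6% and 84.7% of all peaks. Long noncoding RNAs (lncRNAs) held 25.9% and 27.0%, against 6.50% and 6.63%. No RefSeq gene matched 17.6% and 17.0% by symbol. The median fold enrichment of first-exon peaks was 5.42 in protein-coding genes and 6.99 in lncRNAs in WT mice, and 5.17 and 7.62 in Tyrobp-/- mice. The share at an FDR of 1e-05 or lower ran the other way, 43.0% in protein-coding genes and 38.9% in lncRNAs in WT mice, and 43.6% and 37.1% in Tyrobp-/- mice.

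Most host transcripts were short in exon number. Transcripts of 2 exons carried 731 of the WT peaks (41.3%) and 738 of the Tyrobp-/- peaks (41.3%), and transcripts of more than 10 exons carried 150 and 162. The host transcript belonged to another gene than the one assigned to the peak in 286 WT (16.1%) and 300 Tyrobp-/- peaks (16.8%). For these the gene name is that of the nearest start site, and the exon is that of another gene, which overlaps the peak. Peaks that crossed a splice junction, with more than 1 exonic block, were 39.2% and 36.4% of the class, against 28.9% and 26.5% of all peaks. Their median fold enrichment was 7.81 and 7.62, against 5.37 and 5.47 for first-exon peaks in 1 block.

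Where the host transcript was also the transcript that measured the distance, the place within the first exon could be read. Of 1165 such peaks in WT, 489 (42.0%) reached the transcript start, and of 1172 in Tyrobp-/- mice, 497 (42.4%) did. The others began a median of 381 and 353 bases downstream, and 121 and 140 began more than 1000 bases downstream. Peaks at the start had a median fold enrichment of 7.81 and 7.47, and those downstream had 6.35 and 6.19. Protein-coding genes held 21.5% of the WT peaks at the start, 41.2% of those 1 to 250 bases downstream, 68.8% at 251 to 500 bases and 87.5% beyond 2000 bases. The same climb was seen in Tyrobp-/- mice, from 21.1% at the start to 77.6% beyond 2000 bases. A coding first exon has its 5′ UTR at the start, and a peak there is annotated as 5′ UTR and not as first exon, so this order follows in part from the annotation.

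**Figure D3:**
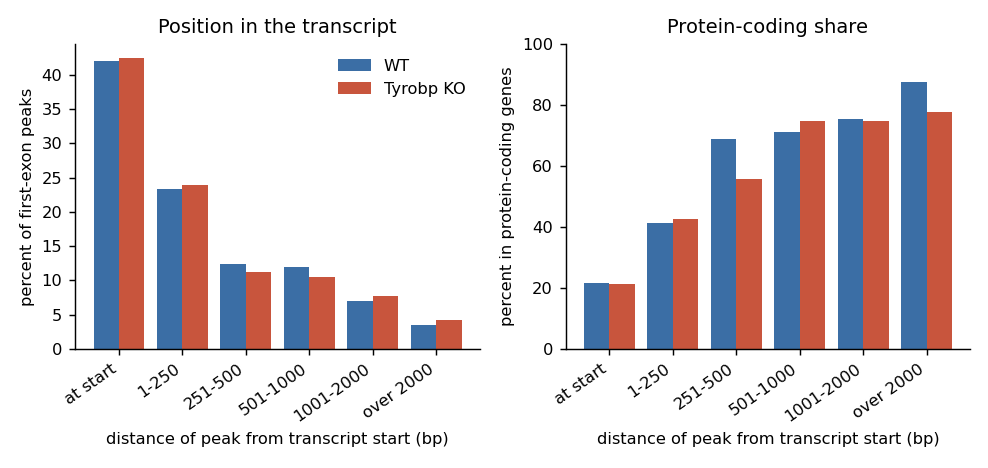
Left, share of first-exon peaks (percent of those measured on their own transcript) by distance from the transcript start in bp, WT blue and Tyrobp-/- red. Right, share of the peaks of each distance class that lie in protein-coding genes, which runs from 21.5% at the start to 87.5% beyond 2000 bp in WT.

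Clustered protocadherins carried many of the first-exon peaks. In the alpha and gamma clusters of these cadherin adhesion genes, which give neurons their surface identity, each variable exon is a long first exon. It holds most of the coding sequence and is spliced to the constant exons of its own cluster. Of their 175 peaks in WT, 50 were first-exon peaks (28.6%), and of their 169 in Tyrobp-/- mice, 60 (35.5%). The median fold enrichment of these was 5.92 and 5.91, with ranges of 1.65 to 36.1 and 2.06 to 45.7. The peaks were long, with a median of 554.5 exonic bases in WT against 260 for the whole class. An overlap of whole spans with the Tyrobp-/- list was found for 43 of the 50, where 78.6% of all WT peaks and 63.9% of WT first-exon peaks had one. Of the 50, 35 had an FDR of 1e-05 or lower, and 88.0% of all WT first-exon peaks of that FDR had an overlap. Some of the 43 overlapped only a long-spanning Tyrobp-/- 5′ UTR peak of 14.6, where the overlap can fall in an intron. All lie in 1 region of chromosome 18 and some overlap each other, so they are not independent of each other.

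Pcdha1 had the highest enrichment of the family, 36.1 in WT (chr18:36931559-36932277, 1375 bases from the start) and 45.7 in Tyrobp-/- mice. Pcdhga7 reached 21.3 in WT and 19.7 in Tyrobp-/- mice. Pcdhgb8 reached 30.3 in WT and 19.1 in Tyrobp-/- mice. Pcdhga2 had 1 peak per list, at 17.8 and 14.9. Pcdhga4 also had 1, at 15.1 and 12.8. Of the genes named so far, Pcdha1 was thus higher in Tyrobp-/- mice and those of the gamma cluster were lower. A peak of Pcdhgb7 was near level, with 4.51 in WT and 4.56 in Tyrobp-/- mice. First exons of Pcdhac1, Pcdhgc4 and Pcdhgc5 held a first-exon peak in the Tyrobp-/- list, with up to 15.4, 11.0 and 11.6. All 5 of these peaks overlapped the span of a WT peak, but no WT peak was placed in the first exon of those 3 genes by name. The peaks of Pcdhgc4 and Pcdhgc5 each overlapped 1 WT peak of similar enrichment, 12.1 and 11.3, which was annotated as 5′ UTR. There the class differed between the lists, and a gain of a peak is not shown. The 3 peaks of Pcdhac1 overlapped only 2 WT 5′ UTR peaks, of 1.69 and 8.30, whose spans also reach peaks at Pcdha11. Overlap of spans can fall in introns, so it does not show a shared exonic signal there. In the comparison table the family had 7 first-exon peaks, of which 0 were higher and 2 were lower at a p below 0.05 and a fold of at least 2, where 9.01% of all listed peaks were higher and 5.57% lower. The 2 lower rows overlap at Pcdha3 and count as 1 site, which lies in the first exon of another gene.

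Other genes with long first exons carried several peaks each. Frem2 and Frem3, genes for extracellular matrix proteins of basement membranes, had 6 and 5 first-exon peaks in WT and 6 and 8 in Tyrobp-/- mice. Tdrd6, a tudor domain protein of the germ line, had 7 in WT and 6 in Tyrobp-/- mice, with fold enrichments up to 33.2 and 13.3. Irs1, the docking protein of the insulin receptor, had 6 in WT between 1259 and 2908 bases from the start, with fold enrichments of 1.81 to 4.91. Of these 6, 5 overlapped the span of a Tyrobp-/- peak. Fat4, a giant cadherin, had 6 in Tyrobp-/- mice, of which 5 overlapped the span of a WT peak. A single first-exon peak was the rule, in 86.2% of the WT and 84.3% of the Tyrobp-/- genes.

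Predicted models aside, the highest enrichments that were matched between the lists and had a log10 FDR of -10 or lower fell on genes of varied function. Some predicted models were higher than most of them, such as 2610035D17Rik with 52.6 and Gm26644 with 43.0 in WT. Lrch2, a leucine-rich repeat protein of the cytoskeleton, led in WT with 67.4 on chrX:147553751-147554081 at the transcript start. Mc5r, a melanocortin receptor, had 41.0 in WT, and its overlapping Tyrobp-/- peak had 34.3 but was annotated as 3′ UTR. Tsc22d2, of the TSC22 family of transcriptional regulators, had 25.6 in WT and 11.4 in Tyrobp-/- mice. Ttc13, a tetratricopeptide repeat protein, had 23.9 and 8.44. In Tsc22d2 and Ttc13 the WT list value was more than 2 times the Tyrobp-/- list value, and in Lrch2 it was not. In the comparison table the first-exon row of Tsc22d2 had a smaller change, a log2 fold change of Tyrobp-/- over WT of -0.489 (deposited p 0.00115). That of Ttc13 went the other way, with 0.823 (deposited p 0.0234), so its fall between the lists is not borne out there.

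Among named genes with the lowest FDR in WT, Agap2, a GTPase regulator of neurons, had 19.7 and 18.1 and the lowest p of the class, a log10 p of -4570 in WT. Its peak covers 837 bases of exon 1 of 19 on chr10:127079912-127080748. Aatk, a kinase of the nervous system, had 18.1 in both genotypes with a log10 p of -2580 in WT. Rtn3, which shapes the endoplasmic reticulum, had 5.46 in WT and 5.05 at an overlapping internal-exon peak of Tyrobp-/- mice. Sipa1l3, a regulator of Rap GTPases, had 6.73 and 7.03. Celsr2, a cadherin of planar cell polarity, had 11.5 in WT and overlapped peaks of 1.83 and 11.3 in Tyrobp-/- mice. Predicted models such as 2010300C02Rik (log10 p of -1910) and 2900052N01Rik (-1470) had a lower p than Sipa1l3 (-973) and Celsr2 (-897).

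From the Tyrobp-/- list, again without predicted models, Zbtb10, a zinc finger repressor, had 34.3 against 15.8 in WT. Tmem28 had 30.1 against 16.5. A peak assigned to Bahcc1, a chromatin protein, had 29.5 against 9.20, but lies in the first exon of a 2-exon transcript of another gene. Lemd3, of the inner nuclear membrane, had 22.9 against 18.6. Its first-exon row in the comparison table went the other way, with a log2 fold change of Tyrobp-/- over WT of -0.425 (deposited p 0.000219). Adamts8, a secreted metalloprotease, had 20 against 18.9, and a peak assigned to Pcdhgb2, also in the first exon of another gene, had 20.8 against 20.9.

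Of the WT first-exon peaks, 1131 (63.9%, 61.6% to 66.1%) overlapped a Tyrobp-/- peak of any class by at least 1 bp on the same strand, against 78.6% of all WT peaks. Of the Tyrobp-/- first-exon peaks, 1199 (67.1%, 64.9% to 69.3%) overlapped a WT peak, against 76.4% of all Tyrobp-/- peaks. Last-exon peaks gave 69.1% in WT and 69.4% in Tyrobp-/- mice, and single-exon peaks 66.4% and 63.9%. The share followed the strength of the peak. It was 88.0% and 89.1% among first-exon peaks with an FDR of 1e-05 or lower, and 47.3% and 52.3% among the others. Where exactly 1 peak overlapped, it was also a first-exon peak in 688 of 867 WT cases (79.4%) and a 5′ UTR peak in 71. For Tyrobp-/- peaks the numbers were 703 of 924 (76.1%) and 102. In the remaining cases the same place had another class in the other list.

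Among first-exon peaks of named genes without an overlapping peak in the other list, the highest in WT was Cdrt4 with 37.1. Auts2, a nuclear regulator of brain development, had 23.4 over 61 bases, while the Tyrobp-/- list held 4 first-exon peaks elsewhere in Auts2. Shc2, a signalling adaptor, had 21.5. A first-exon row of Shc2 in the comparison table, which need not be the same site, had a log2 fold change of Tyrobp-/- over WT of 0.59 (deposited p 0.0603). Psmd1, a proteasome subunit, had 20.5, as had a peak assigned to Tecta that lies in the first exon of the predicted gene Gm47629. In Tyrobp-/- mice Dchs2, a cadherin, had 25.7. Jmy, an actin nucleation factor, had 24.8, and Tub, a protein of ciliary trafficking, had 21.0. Ccdc177 was listed in 2 rows at 19.1, with spans that differ by 5 bases in the first exon of Gm26796, so it counts as 1 site. In steps of their list, these fold enrichments were 38.0, 24.0, 22.0, 21.0 and 21.0 in WT and 27.0, 26.0, 22.0 and 20 in Tyrobp-/- mice. All were whole numbers when rounded to 3 digits, so these peaks found in 1 list only stood on the ladder.

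At first-exon peaks matched 1 to 1 between the lists within the same gene, enrichment had no common direction. The 691 pairs had a median log2 ratio of Tyrobp-/- over WT of -0.04 (quartiles -0.46 and 0.44), against 0.05 over all 17965 pairs. The ratio was above 0 in 319 pairs, below 0 in 368 and exactly 0 in 4. The step of the Tyrobp-/- list is smaller than that of the WT list, and with each value divided by its own step the median was 0 at 2 decimals. These ratios carry no replicate error.

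The spread of the ratio was wider than over all pairs and near that of last-exon pairs. Tyrobp-/- enrichment was at least 2 times higher in 70 pairs (10.1%), against 6.37% of all pairs, and at least 2 times lower in 73 (10.6%), against 5.19%. In either direction the share was 20.7% for first-exon, 20.1% for last-exon and 25.0% for single-exon pairs, and 15.5% for 5′ UTR, 9.48% for internal-exon and 7.86% for 3′ UTR pairs. Among pairs with a WT FDR of 1e-05 or lower it was 67 of 390 (17.2%), against 7.94% of all such pairs and 16.5% of last-exon and 23.4% of single-exon pairs. First-exon pairs had a median of 330 exonic bases in WT and all pairs 390. Whether weaker coverage underlies the wider spread was not tested.

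**Figure D4:**
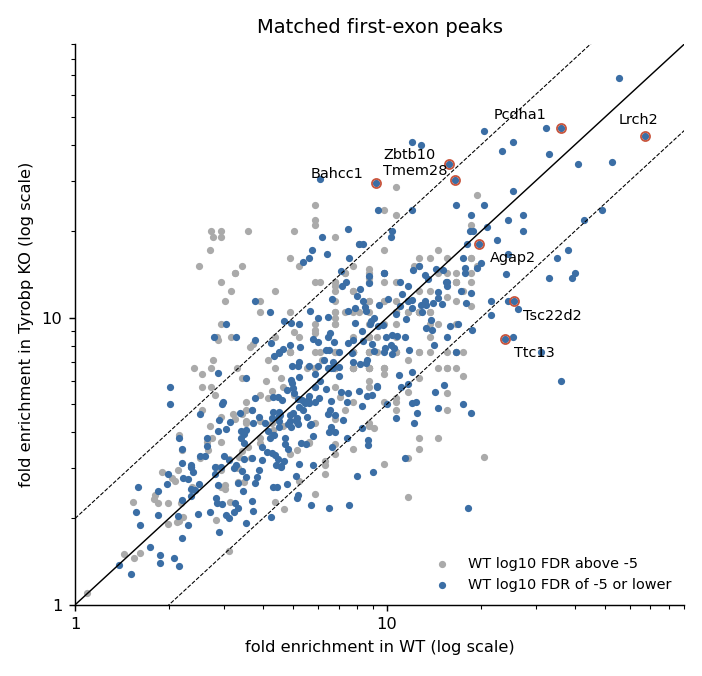
Fold enrichment in WT (horizontal) and Tyrobp-/- mice (vertical), both on log scales, of the 691 matched first-exon pairs, blue where the WT log10 FDR was -5 or lower and grey otherwise, with equality as a solid line and 2-fold differences as dashed lines. Points scatter evenly about equality, with 70 pairs above the upper and 73 below the lower dashed line, and the peaks assigned to Bahcc1, Tsc22d2 and Ttc13 among those outside.

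The deposited comparison table gives a log2 fold change of enrichment (Tyrobp-/- over WT), a p and an FDR from the peak caller, with no value per sample, so the spread between samples could not be set beside them. Of its 262 first-exon peaks, 133 were above and 129 below a log2 fold change of 0, and the median was 0.31 (quartiles -0.83 and 1.32) against 0.42 over all listed peaks. At p below 0.05 there were 133 first-exon peaks (50.8%), against 70% of all listed peaks. At p below 0.05 and a fold of at least 2, 30 were higher (11.5%, 7.86% to 15.9%), against 9.01% of all, and 25 were lower (9.54%, 6.27% to 13.8%), against 5.57%. With an FDR below 0.05 in place of the p, 11 were higher (4.20%, 2.11% to 7.39%) and 13 lower (4.96%, 2.67% to 8.34%), against 5.53% and 3.19%. At a fold of at least 1.5 with p below 0.05, 50 were higher (19.1%, 14.5% to 24.4%) and 51 lower (19.5%, 14.9% to 24.8%), against 23.3% and 13.5%. Predicted gene models made up 17 of the 30 and 10 of the 25. The interval of the share of higher peaks includes the background in all 3 settings. That of lower peaks lies above the background under the p thresholds and includes it under the FDR. At p below 0.05 and a fold of at least 2, the share of lower peaks was above the background also in 5′ UTR (6.13%), internal-exon (8.25%), last-exon (8.87%) and single-exon peaks (15.3%), and 2.96% in 3′ UTR peaks, so it was not particular to first exons.

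**Figure D5:**
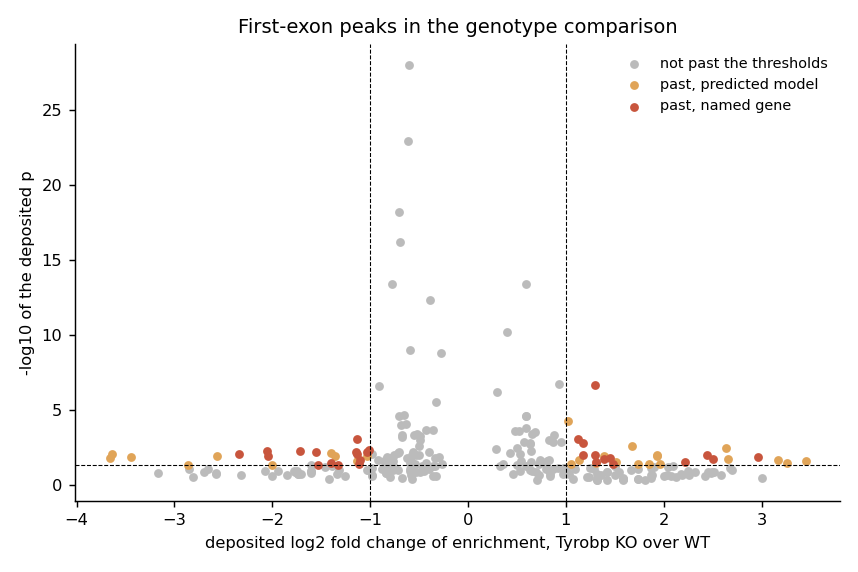
Deposited log2 fold change of enrichment, Tyrobp-/- over WT (horizontal), and -log10 of the deposited p (vertical) of the 262 first-exon peaks in the comparison table, with dashed lines at a fold of 2 and p of 0.05, and peaks past both in red (named genes) or yellow (predicted models). Most of the 30 higher and 25 lower peaks lie just above the p threshold, and the lowest p belong to peaks with a fold under 2.

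Among named genes, the largest rise was in Dthd1, a death domain protein, with a log2 fold change of 2.96 (deposited p 0.0141, FDR 0.055) and list values of 9.38 in WT and 23.8 in Tyrobp-/- mice. Med16, a subunit of the Mediator complex, had 2.50 (deposited p 0.0191), with 23.4 and 38.1 in the lists. A peak assigned to Gnao1, the G protein subunit of neurons, had 2.44 (deposited p 0.0107, FDR 0.0447), with 3.58 and 20, but lies in the first exon of 4930488L21Rik. Aqp9, a water and glycerol channel, had 2.22 (deposited p 0.0302) with a Tyrobp-/- peak of 19.1 annotated as 5′ UTR and no overlapping WT peak. The rises in Jmy (1.48), Cntrob (1.45), AC163221 (1.39) and Fgfr2 (1.31), a receptor of fibroblast growth factors, had p between 0.0158 and 0.0407. Of these 8, Gnao1 alone had an FDR below 0.05.

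The largest fall among named genes was in Rbp3, a retinoid-binding protein, with a log2 fold change of -2.34 (deposited p 0.00891, FDR 0.038), where the lists had 1 peak of 17.6 in WT and 2 of 10.5 and 6.67 in Tyrobp-/- mice. Mir124a-1hg, the host transcript of the neuronal microRNA miR-124, had -2.05 (deposited p 0.00575, FDR 0.0275) with 9.77 in WT and no overlapping Tyrobp-/- peak. Frem2 had -2.04 (deposited p 0.012, FDR 0.049) with 14.6 in WT and no overlapping Tyrobp-/- peak. Elsewhere in the gene, the Tyrobp-/- list held 6 first-exon peaks of Frem2. Slc30a1, the zinc exporter of the plasma membrane, was listed in 2 overlapping rows with -1.72 (FDR 0.0269) and -1.40 (FDR 0.11). Mctp1, a calcium-binding C2 domain protein, had -1.55 (FDR 0.0316) although neither list had a peak there. Ccdc166 (-1.53) and Sclt1 (-1.33), a protein of ciliary appendages, had FDRs of 0.135 and 0.141. Of these 8 rows, 5 had an FDR below 0.05, and over all peaks past both thresholds it was 11 of 30 rises and 13 of 25 falls. Some rises of smaller fold had lower FDRs than these, namely a peak assigned to Snord60 (log2 fold change 1.30, FDR 4.07e-06), Selenom (1.12, FDR 0.00575) and Lztr1 (1.17, FDR 0.0105), which were picked after their values were seen.

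Some of the lowest p of the comparison fell on smaller changes. These genes were picked after their values were seen. Prcc, a nuclear protein linked to splicing, had a log2 fold change of -0.61 (deposited p 1.26e-23), with fold enrichments of 3.54 in WT and 1.92 in Tyrobp-/- mice. Kmt2b, a histone H3 lysine methyltransferase, had -0.70 (deposited p 6.31e-19), with overlapping internal-exon peaks of 2.50 and 7.65 in WT and 2.48 and 5.90 in Tyrobp-/- mice. Kctd1 had -0.70 (deposited p 6.31e-17), with 4.78 and 2.63, and Mnt, a repressor that pairs with MAX, had -0.77 (deposited p 3.98e-14), with 5.80 and 3.88. Mycbp2, a ubiquitin ligase of synapse development, went the other way with 0.59 (deposited p 3.98e-14) and overlapped a peak of the Tyrobp-/- list alone.

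At an FDR below 0.05 with no minimum fold, 34 first-exon peaks were higher (13.0%) and 45 lower (17.2%), both below the shares of all listed peaks, 35.1% and 19.9%. Lower peaks were 57.0% of the first-exon peaks that passed, 51.4% of the 5′ UTR peaks, 65.0% of the internal-exon peaks, 44% of the last-exon peaks, 62.5% of the single-exon peaks and 36.1% of all. At an FDR of 1e-05 or lower, 4 first-exon peaks were higher and 9 lower, against 11.6% and 6.56% of all listed peaks. At that FDR lower peaks outnumbered higher ones also in 5′ UTRs (75 and 66), internal exons (50 and 24), last exons (14 and 4) and single exons (9 and 5).

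Lists of genes tied to the tissue or the pathway held small numbers of first-exon peaks. As shares of the peaks of a list, these lay on both sides of the shares over all peaks, 5.27% in WT and 5.12% in Tyrobp-/- mice. For the m6A machinery the shares were 2.5% and 6.25%. Of the m6A machinery, Rbm15, which brings the methyltransferase to RNA, had a peak of 2336 exonic bases with 12 in WT and 10.8 in Tyrobp-/- mice. Alkbh5, an m6A demethylase, had 12.4 in Tyrobp-/- mice, over a WT peak of 14.6 annotated as 5′ UTR. Ythdc1, the nuclear m6A reader, had 2.59 in Tyrobp-/- mice and no overlapping WT peak. None of the 20 genes of that list had a first-exon peak in the comparison table.

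Of 20 lncRNAs of the brain, 5 had first-exon peaks in WT and 2 in Tyrobp-/- mice. First-exon peaks were 6 of the 47 peaks of this list in WT (12.8%) and 2 of 44 in Tyrobp-/- mice (4.55%). Snhg14, the long transcript antisense to Ube3a, had 5.86 in WT and 24.8 in Tyrobp-/- mice over the same 151 bases. Sox2ot, which overlaps Sox2, had 3.03 and 11.4. The log10 FDR was -2.57 and -2.35 in WT and -5.65 and -2.00 in Tyrobp-/- mice, and neither gene had a first-exon peak in the comparison table. Of the list, Pantr1 and Mir124a-1hg had one there, and 0 were higher and 1, Mir124a-1hg, was lower at both thresholds. Rmst was listed in 2 rows at 7.81, with a log10 FDR of -0.79, in WT mice.

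Genes with a potassium channel symbol had 9 first-exon peaks in WT and 8 in Tyrobp-/- mice, 1 of the latter in an antisense noncoding RNA. These were 3.57% and 3.11% of all peaks of these genes. Kcnn3, a calcium-activated channel, had fold enrichments of 6.28 in WT and 7.12 in Tyrobp-/- mice. Kcnab1, a beta subunit, had 4.12 and 9.85, where the Tyrobp-/- peak also overlapped a WT last-exon peak of 5.13, with a log2 fold change of 0.54 (deposited p 0.0269) in the comparison table. That peak and 1 of the antisense RNA were the 2 rows of the list in the table, and neither passed both thresholds.

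The other lists had 2 first-exon peaks or fewer per genotype. Their shares of the peaks of a list reached at most 6.25%, which was 1 of 16 peaks of the microglial markers in Tyrobp-/- mice. Of the 20 activity-induced genes, Egr4 (8.73) and Junb (2.76) had one in WT and none had one in Tyrobp-/- mice, where an overlapping Egr4 peak of 14.0 was annotated as last exon. Of 30 neuronal transcription factors, Bcl11b (1.73) and Zbtb20 (9.77) had one in WT and Lhx2 (6.53, in the first exon of Gm27197) in Tyrobp-/- mice. Of 25 synaptic scaffold and organizer genes, Dlg2 had one of 3.62 in Tyrobp-/- mice, where WT had a 5′ UTR peak of 16.6. Of 20 genes of microglia and TYROBP signalling, Cx3cr1, the fractalkine receptor, had one assigned to it, of 7.62 in Tyrobp-/- mice with a log10 FDR of -0.76. That peak lies in the first exon of another gene, 56984 bases from the Cx3cr1 start, so it is not a first-exon peak of Cx3cr1 itself. Astrocyte, oligodendrocyte, endothelial and microglial markers held peaks in both lists, but Cx3cr1 was the only one with a first-exon peak assigned to it. Of 4 hypothalamic markers, 2 held a peak in WT and 0 in Tyrobp-/- mice, none of them in a first exon.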

How the data were processed

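MeRIP-seq was done on 3 samples per genotype, each with an IP and an input library of poly(A) RNA. Per the labels and the study's methods, the authors used fastp for trimming, HISAT2 for mapping (mouse genome of Ensembl v96, GRCm38), exomePeak for peak calling, and ChIPseeker for annotation, in versions not given in the sources used here. The authors deposited counts of raw and valid reads per library with the percent of bases that were G or C. Their peak lists hold the p-value of IP against input, the log10 of p and FDR as scores, and the fold enrichment as a ratio. Their comparison table holds the log2 fold change, p-value and log10 FDR of the peak caller, printed here as deposited values. How replicates entered the calling is not given in the sources used here. The files hold 1 value per peak and genotype and none per sample, so no test between genotypes was possible over samples, and the precision of single peaks is limited by reads per peak that are not analysed here.

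Members were taken from annotations starting with Exon and naming exon 1 of more than 1. Peaks were matched by 1 bp of overlap between whole spans on a strand, and pairs had to match 1 to 1 within a gene. Intervals are exact (Clopper-Pearson). Named genes, predicted models aside, were the 8 highest matched peaks at a log10 FDR of -10 or lower and the 5 highest unmatched in each list, the 5 lowest FDRs in WT, the 8 largest rises and falls past both thresholds, and members of gene lists. The members and lists were chosen with earlier results of these data known. Alternatives were a stricter FDR, a minimum fold enrichment, 1 peak per gene, host gene, overlap rule and thresholds of the comparison. Python 3.11.15, pandas 2.3.3, numpy 2.4.6, scipy 1.17.1 and matplotlib 3.10.9 were used, and the computations were tested on simulated data. The values of some single genes are not reported here.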

Additional observations from a re-analysis of the deposited data

How the results depend on the processing

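The share of first-exon peaks, 5.27% in WT and 5.12% in Tyrobp-/- mice, became 3.33% and 3.24% among peaks with a log10 FDR of -5 or lower, 5.94% and 5.66% among those enriched 4-fold or more, 4.73% and 4.55% with 1 peak per gene, 4.66% and 4.49% with transcripts of the assigned gene only, and 3.49% and 3.41% without predicted models, the last chosen after seeing the data. With 1 peak per gene the median fold enrichment was 7.81 and 7.62, and at a log10 FDR of -5 or lower it was 6.13 in Tyrobp-/- mice. The share that overlapped the other list was 39.4% in WT and 38.4% in Tyrobp-/- mice at a reciprocal overlap of 50%, 77.1% and 81.0% with both lists at a log10 FDR of -5 or lower, and 88.0% and 89.1% for first-exon peaks of that FDR against the whole other list, which was also chosen after seeing the data. In the comparison table, 11 first-exon peaks were higher and 13 lower at an FDR below 0.05 and a fold of at least 2, and 50 were higher and 51 lower at a fold of at least 1.5 and p below 0.05. The 30 higher against 25 lower peaks of the thresholds used thus turned to slightly more lower than higher ones under both settings, and the interval of the share of lower peaks included the background under the FDR. The share of windows with the consensus was 43.7% in WT for the narrower RRACH, which wants a purine in the first place, and 3.88% in WT and 6.03% in Tyrobp-/- mice for GGACT. The causes of these shifts were not tested beyond what each setting removes. The other 13 of 39 alternatives stayed within the interval, or within 1.5 times the count, of the value reported. No paired analysis was possible because the peak lists hold 1 value per genotype and none per sample, and leaving out a replicate was not possible for the same reason.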

Other observations

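Fold enrichment and evidence ordered first-exon peaks differently, and a ranking by fold enrichment alone would put less supported peaks first. In WT mice the peaks of Lrch2, Mc5r and Pcdha1, with 67.4, 41.0 and 36.1, stood at 69.0, 42.0 and 37.0 steps of the list and had a log10 p of -27.3, -11.1 and -14.0. Agap2 and Aatk, with 19.7 and 18.1, had a log10 p of -4570 and -2580.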
